A study of Mus musculus with 6 samples.

Results

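Core genes of the insulin pathway, 9 in all from the insulin receptor gene Insr to Slc2a4, the gene of the insulin-responsive glucose transporter GLUT4, were followed in mouse fat cells given kynurenic acid. The members were Insr, Irs1, Irs2, Pik3r1, Akt1, Akt2, Foxo1, Tbc1d4 and Slc2a4. They were chosen by symbol, and each was read from 1 transcript cluster, the set of array probes for 1 transcript, that was annotated as specific (crosshyb_type 1) and had the highest mean over all arrays. All 9 were found among 27365 genes tested. Primary adipocytes of the inguinal depot, a subcutaneous white fat, were differentiated in culture and then received 50 µM kynurenic acid or PBS, the vehicle control, for 12 h. Kynurenic acid is a product of tryptophan breakdown. Each treatment was measured on 3 Affymetrix MoGene 2.0 ST arrays. No strain, age or genotype was given in the labels. In their titles the arrays are technical replicates, and no label names separate cultures or animals, so p-values cover array spread alone, which may be technical. The comparison asks whether the treatment moved the transcripts of this pathway.

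Insulin binds its receptor, a tyrosine kinase, which phosphorylates the adaptor proteins IRS1 and IRS2. They recruit phosphoinositide 3-kinase (PI3K), whose lipid product activates the kinase AKT. In fat and muscle, AKT phosphorylates TBC1D4 (also called AS160), which otherwise holds GLUT4 vesicles inside the cell, and it keeps the transcription factor FOXO1 out of the nucleus. Much of this control is on proteins and their place in the cell, which an RNA array does not read.

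No change with kynurenic acid was detected in any of the 9 genes. By limma with Benjamini-Hochberg adjustment over all genes, 0 of 9 passed at an adjusted p of 0.05, and their adjusted p-values ran from 0.676 to 0.992. The share called over all 27365 genes tested was 0%, and the lowest adjusted p was 0.435. Without adjustment, 0 of the 9 genes had a limma p below 0.05, beside 9.69% of all genes tested (4.69% higher and 5% lower with kynurenic acid). In all 9 the kynurenic acid and PBS arrays overlapped; groups free of overlap were seen in 14.7% of all genes tested. The log2 changes, kynurenic acid minus PBS, lay between -0.0033 for Pik3r1 and 0.12 for Foxo1. Their median was 0.053, against 0.0067 over all genes tested and -0.037 over the 11310 genes at least 1 log2 above background, as all 9 were. Above 0 were 8 of the 9, beside 14170 of the 27365 and 4253 of the 11310. The 8 became 5 after centring arrays on their medians or without kynurenic acid array 2, and 9 after cyclic loess. All 9 intervals (95%, limma) included 0, and their outermost bounds were -0.20 and 0.38 log2, which are 0.87 and 1.30 times the PBS level. Larger changes lay outside the interval of every one of the genes.

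Sequence upstream of the genes is shown for the paralogous adaptors Irs1 and Irs2, because the FoxO factors that insulin restrains are known to act on Irs2 in mouse liver. RefSeq promoters (GRCm38.p6, 250 bases before to 50 after a gene start) were at hand for 7 of the 9 genes, 12 promoters in all, without Insr and Slc2a4. Capitals mark the letters CACGTG, an E box, and CAAAACA, an insulin response sequence bound by FoxO factors, which both promoters hold as the reverse complement TGTTTTG. The first promoter is chr1:82291390-82291689 and the second chr8:11008880-11009179, both on the minus strand and printed 5′ to 3′ along the gene.
Irs1: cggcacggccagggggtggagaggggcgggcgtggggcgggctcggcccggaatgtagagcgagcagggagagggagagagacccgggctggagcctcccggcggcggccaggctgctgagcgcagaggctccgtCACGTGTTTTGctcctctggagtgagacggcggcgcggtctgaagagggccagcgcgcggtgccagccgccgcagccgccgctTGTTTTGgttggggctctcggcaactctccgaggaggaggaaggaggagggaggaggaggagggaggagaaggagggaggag
Irs2: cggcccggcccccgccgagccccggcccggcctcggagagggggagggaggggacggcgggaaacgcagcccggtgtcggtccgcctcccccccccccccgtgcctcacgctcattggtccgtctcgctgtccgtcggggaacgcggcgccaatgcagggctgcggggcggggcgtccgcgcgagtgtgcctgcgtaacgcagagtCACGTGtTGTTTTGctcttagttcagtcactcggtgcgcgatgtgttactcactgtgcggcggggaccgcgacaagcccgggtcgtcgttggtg

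In Irs1 the E box, from 115 to 110 bases before the gene start, shares letters with the first insulin response sequence, from 111 to 105 bases before it. A second Irs1 copy lies 32 to 26 bases before the start. In Irs2 the E box lies 44 to 39 bases and the insulin response sequence 37 to 31 bases before the start, with 1 base between them. On either strand, CAAAACA is in 6.28% and CACGTG in 7.15% of 32851 promoters of this length. Both are in 0.408%. In 9 promoters (0.0274%), the 2 printed ones among them, they overlap or lie at most 1 base apart in the arrangement seen here. That arrangement is CACGTG followed by TGTTTTG, or its reverse complement, and other arrangements were not counted. Another motif, GTAAACA, the FoxO element, is in 3.65% of all promoters and in 1 of the 12 promoters here, that of Akt1. These motifs were picked after the sequences had been looked at, and a match describes letters only.

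Before the genes themselves, the arrays were checked. All 8 measured adipocyte markers, among them Adipoq, Pparg and Fabp4, read above background in every array, taken as the array's mean over 23 antigenomic probe sets (3.58 to 3.91 log2). So did all 7 measured macrophage markers, with Lyz2 at 10.66 log2 with kynurenic acid and 10.58 with PBS. Of 6 measured preadipocyte markers, 5 read above background in every array. The brightest, Pdgfra, was at 9.90 with kynurenic acid and 10.01 with PBS. Dpp4 was below background in all 6 arrays, and only 3 of the 6 preadipocyte markers had a mean at least 1 log2 above it. Lyz2 was the only macrophage marker higher with kynurenic acid. The other 6 were lower, and the median change of the macrophage markers was -0.12 log2. All 9 pathway genes under study read at least 1.70 log2 above background on every array. Of 7 markers of skeletal muscle, a tissue that also uses GLUT4, 4 were above background in each kynurenic acid array and 3 or 4 in the PBS arrays, while the myosin genes Myh1 and Myh4 were below it in all 6. No marker passed the test over all genes. The mean deviations of the endothelial, muscle and epithelial markers were nonetheless higher in every kynurenic acid array than in every PBS array. They were 0.039 to 0.124 log2 with kynurenic acid and -0.141 to -0.051 with PBS for 6 endothelial markers, 0.031 to 0.118 and -0.117 to -0.012 for muscle, and 0.012 to 0.144 and -0.066 to -0.042 for 5 epithelial markers. The background itself read 3.88, 3.76 and 3.91 log2 in kynurenic acid arrays 1 to 3, against 3.76, 3.58 and 3.75 in PBS arrays 1 to 3. Most of these markers lay near it, and the part of the background in their deviations was not tested. Only 1 marker of each list had a mean at least 1 log2 above background: endothelial Cdh5, muscle Acta1 and epithelial Krt8. Their changes were 0.51, -0.11 and -0.06 log2, so Acta1 and Krt8 went against their list means. Cdh5, the VE-cadherin gene of endothelial junctions, measured 5.59 ± 0.084 log2 with kynurenic acid and 5.08 ± 0.090 with PBS (SD, n = 3 each), with a limma adjusted p of 0.472. The part of these markers in the values that follow was not tested. The arrays numbered 2 stood apart in 8 interferon-stimulated genes, chosen with earlier results known: their mean deviation was 0.40 log2 in kynurenic acid array 2 and 0.66 in PBS array 2, against -0.38 to -0.15 in the others. Fewer cells of a type and less RNA per cell cannot be told apart in such bulk samples.

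**Figure D1:**
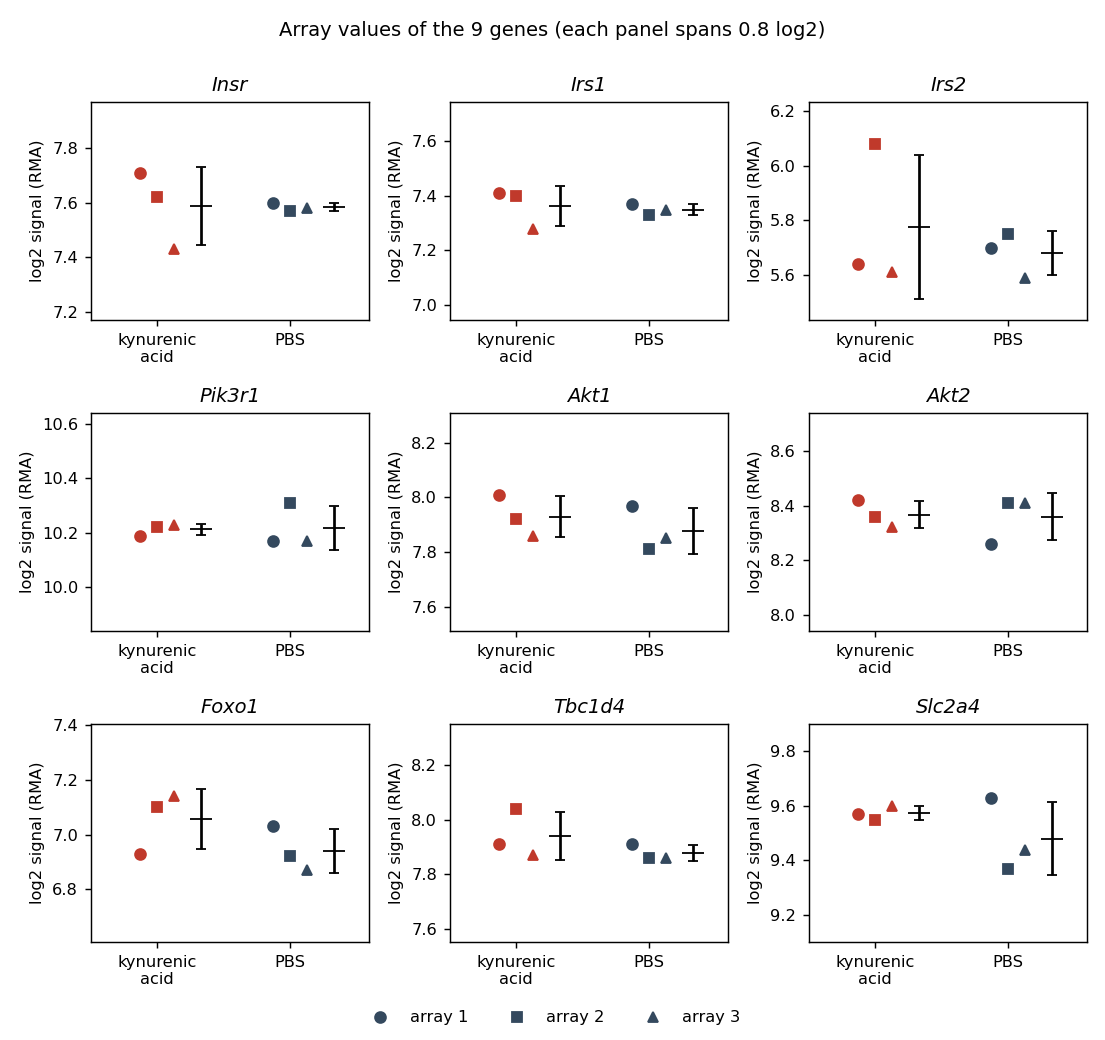
Log2 signal of the 9 genes on each array, with kynurenic acid left of PBS. Symbols give arrays 1 to 3, and the black bar gives the mean with the SD (n = 3). Each panel spans the same log2 range, and the groups overlap in every panel, with Irs2 in kynurenic acid array 2 at 6.08 as the point farthest from its group.

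Insr, the receptor gene (mm10 chromosome 8, 3150922 to 3279617, minus strand), measured 7.71, 7.62 and 7.43 log2 in the kynurenic acid arrays, against 7.60, 7.57 and 7.58 in the PBS arrays. The kynurenic acid values lay on both sides of the narrow PBS range. The change was 0.0033 log2 (SE 0.090, 95% interval -0.20 to 0.21, limma adjusted p = 0.992). Igf1r, which encodes the related receptor for insulin-like growth factor 1, had a change of 0.017 log2 (interval -0.17 to 0.20) and was named after its value was seen.

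Irs1 and Irs2 encode the receptor's main adaptors. Irs1 (chromosome 1, 82233101 to 82291439, minus strand) measured 7.41, 7.40 and 7.28 log2 with kynurenic acid, against 7.37, 7.33 and 7.35 with PBS. All 3 PBS arrays fell inside the kynurenic acid range, and the change was 0.013 log2 (SE 0.076, interval -0.16 to 0.19). A second specific cluster under the symbol Irs1 is annotated to the plus strand, at 82233112 to 82235933, where it overlaps the first by 2822 bases on the opposite strand. It read 5.07 ± 0.11 log2 with kynurenic acid and 4.90 ± 0.19 with PBS (SD, n = 3 each), a difference of 0.17, and its values too overlapped between groups. Whether it reads Irs1 transcripts cannot be told from the annotation.

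Irs2 (chromosome 8, 10986961 to 11008458, minus strand), whose promoter is printed above, measured 5.64, 6.08 and 5.61 log2 with kynurenic acid, against 5.70, 5.75 and 5.59 with PBS. A single kynurenic acid array, number 2, was high, and the others lay inside the PBS range. Its SD with kynurenic acid, 0.26, was the largest of the 9 genes in that group. The change was 0.097 log2 (SE 0.13, interval -0.19 to 0.38, limma adjusted p = 0.824), and it was -0.055 without kynurenic acid array 2. That array is also one of those high in the interferon-stimulated genes, and the part of this in the Irs2 value was not tested.

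Pik3r1, the gene of the p85-alpha regulatory subunit of PI3K (chromosome 13, 101680761 to 101768217, minus strand), measured 10.19, 10.22 and 10.23 log2 with kynurenic acid, against 10.17, 10.31 and 10.17 with PBS. The kynurenic acid arrays sat together inside the PBS range. The change was -0.0033 log2, with an interval from -0.18 to 0.17.

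Akt1 and Akt2 encode isoforms of AKT, the kinase that PI3K activates. Akt1, the more widely expressed isoform (chromosome 12, 112653821 to 112674884, minus strand), measured 8.01, 7.92 and 7.86 log2 with kynurenic acid, against 7.97, 7.81 and 7.85 with PBS. Akt2, the isoform most tied to glucose uptake in fat (chromosome 7, 27591552 to 27640826, plus strand), measured 8.42, 8.36 and 8.32 with kynurenic acid, against 8.26, 8.41 and 8.41 with PBS. For each the groups overlapped over most of their ranges. The changes were 0.053 log2 for Akt1 (interval -0.13 to 0.24; 0.013 without kynurenic acid array 1) and 0.0067 for Akt2 (interval -0.17 to 0.19).

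Foxo1, the transcription factor that AKT restrains (chromosome 3, 52268337 to 52350109, plus strand), had the largest difference of the 9 genes. It measured 6.93, 7.10 and 7.14 log2 with kynurenic acid, against 7.03, 6.92 and 6.87 with PBS. Kynurenic acid arrays 2 and 3 were above every PBS array, and array 1 was inside the PBS range. The change was 0.12 log2 (SE 0.088, interval -0.083 to 0.32), a fold of 1.08 that did not pass (limma unadjusted p = 0.219, adjusted p = 0.676). Of all genes tested, 61.7% had a smaller absolute change.

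Tbc1d4, the gene of the AKT substrate on the GLUT4 route (chromosome 14, 101442360 to 101609191, minus strand), measured 7.91, 8.04 and 7.87 log2 with kynurenic acid, against 7.91, 7.86 and 7.86 with PBS. Kynurenic acid array 2 was again the highest and the other arrays of both groups lay close together. The change was 0.063 log2 (SE 0.079, interval -0.12 to 0.24), and 0.013 without kynurenic acid array 2.

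Slc2a4 itself (chromosome 11, 69942286 to 69948190, minus strand) measured 9.57, 9.55 and 9.60 log2 with kynurenic acid, against 9.63, 9.37 and 9.44 with PBS. The 3 kynurenic acid arrays were close to each other (SD 0.025), whereas PBS spread more widely (SD 0.13) and held both the highest and the lowest value. The change was 0.093 log2 (SE 0.088, interval -0.11 to 0.29, limma adjusted p = 0.745), a fold of 1.07, and the interval ran from 0.929 to 1.22 times the PBS level. Changes of Slc2a4 beyond that were outside the interval, and smaller ones could not be told from none with 3 arrays a group. In the authors' deposited table Slc2a4 has a p of 0.317 and a q of 0.606.

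**Figure D2:**
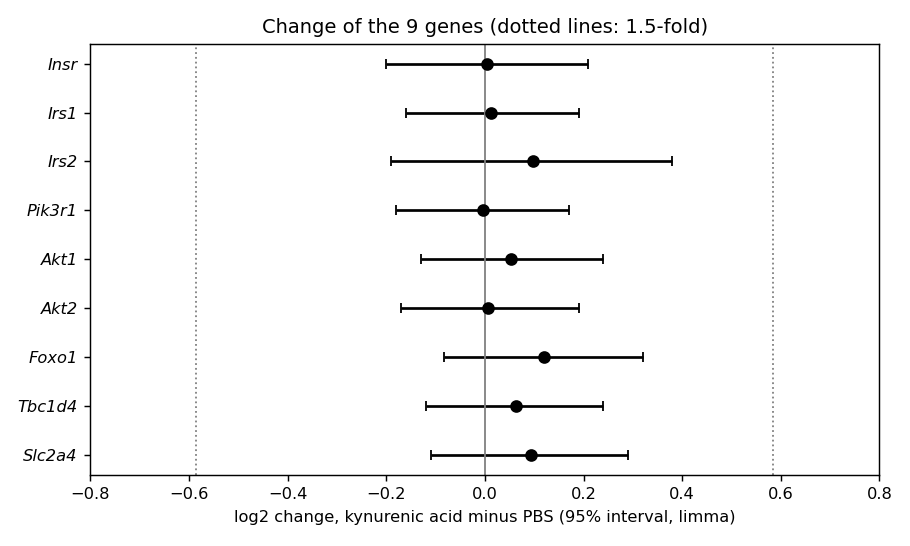
Log2 change of each gene, kynurenic acid minus PBS, with its 95% interval from limma (3 arrays a group); dotted lines mark a change of 1.5-fold. All 9 intervals cross 0 and none reaches a dotted line, with the widest for Irs2 at -0.19 to 0.38.

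The profiles most like that of Slc2a4 over the 6 arrays, by the root mean square distance after each gene's own mean was subtracted, were those of Igf2r (0.024 log2), Pcx (0.025) and Nomo1 (0.030), among 11309 other genes with a mean at least 1 log2 above background. Slc2a4's own root mean square deviation was 0.092 log2. Igf2r, which encodes a receptor that carries lysosomal enzymes and is found in GLUT4 vesicles, had a change of 0.087 log2, and Pcx, which encodes pyruvate carboxylase, one of 0.11. Neither passed the test, with limma adjusted p-values of 0.747 and 0.718. Both were picked for a profile like that of Slc2a4, so a similar change and test result follow from the choice.

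Among themselves the 9 genes varied little. Their SDs ran from 0.021 to 0.26 log2 in the kynurenic acid arrays and from 0.015 to 0.13 in the PBS arrays. The highest of the 6 values was in a kynurenic acid array for 7 genes and in a PBS array for 2, and the lowest was in a kynurenic acid array for 2 and in a PBS array for 7. Averaged over the 9 genes, deviations from each gene's mean were 0.023, 0.078 and -0.027 log2 in kynurenic acid arrays 1 to 3, against 0.006, -0.028 and -0.052 in PBS arrays 1 to 3. The array averages thus overlapped as well.

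**Figure D3:**
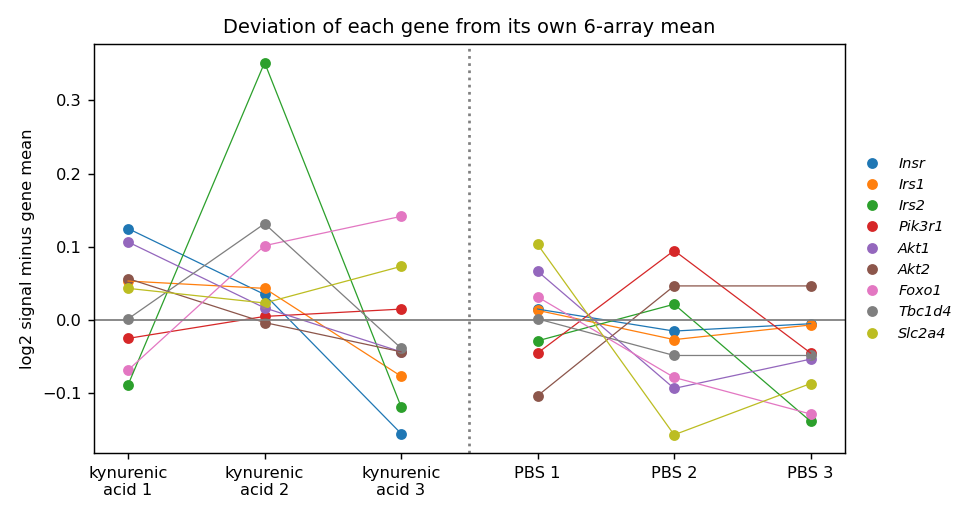
Deviation of each of the 9 genes from its own mean over 6 arrays (log2), in kynurenic acid arrays 1 to 3 and then PBS arrays 1 to 3; lines join the arrays of 1 group only to help follow a gene. No array holds all 9 genes on one side of 0. In kynurenic acid array 2, however, only Akt2 lies below 0, and in PBS array 3 only Akt2 lies above it.

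The rest of the pathway was read from 8 lists with 117 genes, of which 115 had a row. None of the 115 passed limma over all genes, and the lowest adjusted p was 0.472. Without adjustment, 12 genes (10.4%) had a p below 0.05, 5 of them higher and 7 lower, beside 9.69% of all genes tested and 11.2% of the 11310 genes at least 1 log2 above background. The 12 became 2 without PBS array 2, 6 without kynurenic acid array 1, 7 without PBS array 1 and 20 with an intensity trend in the fit. The groups did not overlap in 32 of the 115 (27.8%), beside 14.7% of all genes tested and 18.6% of those above background, which is a count and not a test. The median log2 change was -0.01. In what follows, the genes named are, unless marked, those with the largest absolute changes of their list among genes above that level, and they are given as values, since none passed.

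Of the 14 receptors and adaptors, 0 were under 0.05 before adjustment, and the median log2 change was -0.018. Sh2b2, an adaptor that binds the activated receptor, had a change of 0.18 (interval -0.0064 to 0.36) and Grb14, an inhibitor of the receptor kinase, one of -0.14 (interval -0.31 to 0.028). Among the 6 PI3K subunits the median was 0, and the regulatory subunit genes Pik3r3 and Pik3r2 stood on opposite sides of 0. Pik3r3 measured 4.95, 4.94 and 5.21 log2 with kynurenic acid, against 5.20, 5.38 and 5.36 with PBS, a change of -0.28 (limma adjusted p = 0.476). Its groups met at 5.21 and 5.20. Pik3r2 measured 6.15, 6.0 and 5.95 with kynurenic acid, against 5.77, 5.85 and 5.92 with PBS, a change of 0.19 (limma adjusted p = 0.520).

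The 16 kinases and partners downstream of PI3K had a median of 0.01 and 1 gene, Mlst8, under 0.05 before adjustment. Mlst8, a subunit of both mTOR complexes, had a change of -0.30 (interval -0.58 to -0.022, limma adjusted p = 0.505), and Gsk3a, a kinase that AKT inhibits, one of 0.16. The inhibitors of insulin signalling held the 2 smallest unadjusted p-values of the 8 lists, at a list median of -0.023 over 15 genes. By limma, 3 higher genes and 1 lower gene of this list were under 0.05 before adjustment, beside 9.69% of all genes tested. Ptpn2, a tyrosine phosphatase that can act on the insulin receptor, measured 6.26, 6.75 and 6.46 log2 with kynurenic acid, against 6.81, 7.10 and 6.83 with PBS. All kynurenic acid arrays were below all PBS arrays, and the change of -0.42 (SE 0.13, limma unadjusted p = 0.0112) had an adjusted p of 0.475. Inppl1, the gene of the lipid phosphatase SHIP2, measured 6.83, 6.84 and 6.81 with kynurenic acid, against 6.58, 6.48 and 6.66 with PBS. Its arrays were likewise apart, in the opposite direction, and the change of 0.25 (SE 0.079, limma unadjusted p = 0.0105) had an adjusted p of 0.472.

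For GLUT4 traffic the median over 24 genes was -0.023 log2, with 1 higher and 1 lower gene under 0.05 before adjustment. The lower was Vamp3, a vesicle SNARE gene, at -0.23 (interval -0.42 to -0.037, limma adjusted p = 0.489), and the higher was Lrp1, which encodes a receptor carried in GLUT4 vesicles, at 0.19 (interval 0.010 to 0.37, limma adjusted p = 0.509). The cluster of Tbc1d1, the paralog of Tbc1d4, is annotated to the strand opposite to the gene's in RefSeq, so it may not read Tbc1d1 transcripts and no value is given. Among the 10 other glucose transporter genes the median was -0.042, with 4 changes above 0 and 6 below. Before adjustment, 0 higher genes and 1 lower gene were under 0.05, and that gene was less than 1 log2 above background. Of the 5 transporter genes above that level, the largest changes were 0.20 for Slc2a10 and 0.18 for Slc2a8. Slc2a1, the gene of the basal transporter GLUT1, measured 9.11 ± 0.10 log2 with kynurenic acid and 9.20 ± 0.042 with PBS (SD, n = 3 each), a change of -0.097 (interval -0.28 to 0.089). Tbc1d1 and Slc2a1 were named after the values were seen.

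The remaining lists hold genes that respond to the pathway. The FoxO factors and FoxO targets had a median of -0.043 over 17 genes, with 1 higher and 2 lower genes under 0.05 before adjustment. Foxo6, a FoxO factor gene, had a change of 0.29 (limma adjusted p = 0.475) and Sesn3, a stress-response gene that FoxO factors induce, one of -0.29 (limma adjusted p = 0.502). Pdk4, a FoxO target that restrains glucose oxidation, measured 8.08 ± 0.066 log2 with kynurenic acid and 8.02 ± 0.045 with PBS (SD, n = 3 each), and was named after its value was seen. The genes induced by insulin had a median of 0.057 over 13 genes, with 0 under 0.05 before adjustment. Srebf1, a lipogenic transcription factor gene, measured 8.75, 8.74 and 8.80 log2 with kynurenic acid, against 8.70, 8.46 and 8.63 with PBS. The groups did not overlap, and the change of 0.17 (interval -0.027 to 0.36) had a limma adjusted p of 0.557.

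**Figure D4:**
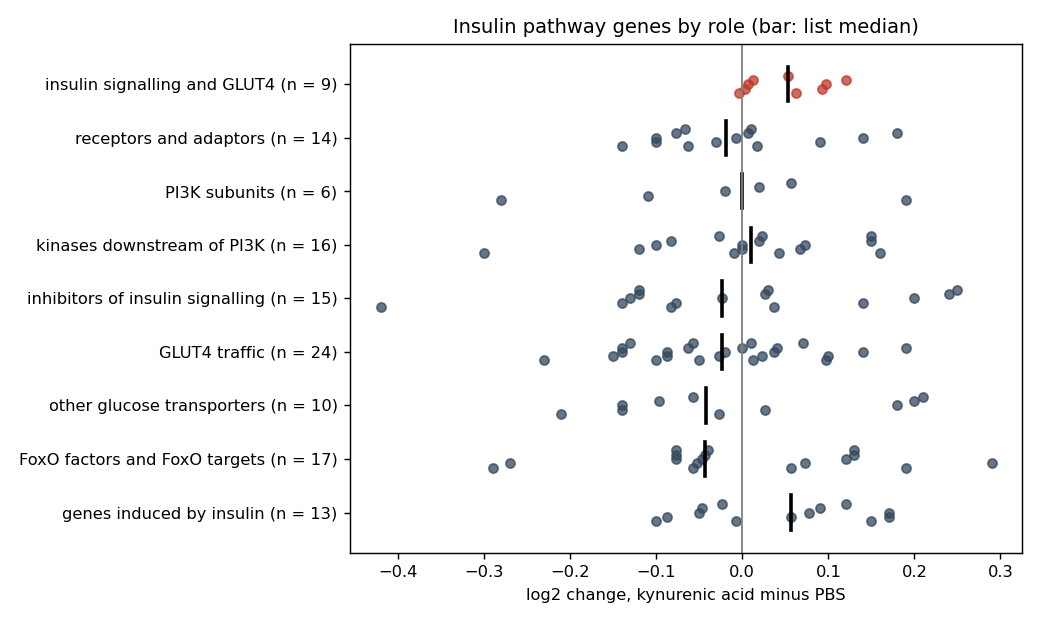
Log2 change, kynurenic acid minus PBS, of the 9 genes (top row) and of the genes in 8 lists of the insulin pathway; each point is a gene and the bar is the list median. The medians lie between -0.043 and 0.057 log2, and the widest single values are -0.42 (Ptpn2) and 0.29 (Foxo6).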

How the data were processed

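The authors' RMA produced the deposited log2 values, per the file headers (background correction, quantile normalization, median polish per transcript cluster) and the submitters' processing notes (Affymetrix Expression Console 1.41), on NetAffx build 34 of mm10. Quantile normalization gives the probe values of all arrays the same distribution, so a shift of most genes in 1 direction would not be seen. The cluster values made from them were close but not equal, with array medians from 3.93 to 3.98 log2. The authors' deposited table also gives mean linear intensity per group, a signed fold score, and p-values and q-values from Student's t-test, per the file headers. Array values of both deposited tables differed by 0.

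Of 41345 clusters, 29726 carried a symbol. For each of 27365 symbols the specific cluster with the highest mean over 6 arrays was kept; 1751 symbols without one took their brightest cluster. Kynurenic acid was set against PBS with limma 3.58.1 in R 4.3.3 (lmFit, eBayes, no covariates, two-sided, Benjamini-Hochberg over all genes, threshold 0.05). The number of arrays limits the precision. On simulated data for this comparison with 27365 genes, the fit recovered 42% of 100 genes changed 1.5-fold and 83% of 100 changed 2-fold. The members and lists were chosen with earlier results of these data known. Named were all members, the 2 pathway genes per list with the largest absolute change at least 1 log2 above background, and the 3 genes most like Slc2a4; others are marked, and 1 gene that this rule picks is not reported here. The symbols Ppp2ca and Stxbp3 of the lists matched no row used here. Alternatives were another test, scaling, filter, cluster choice, a replicate block and arrays left out.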

Additional observations from a re-analysis of the deposited data

How the results depend on the processing

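No gene of the 9, of the pathway lists or of all genes passed limma or the methods' t-test at an adjusted p of 0.05 in any of the 16 alternatives, where the lowest adjusted p of the 9 was 0.528. Genes at an unadjusted p below 0.05 numbered 2653 over all genes by limma and 2156 by the methods' t-test. They were 1552 with the filter at background plus 1 log2, which tests fewer genes (11310), and 1910 to 3570 with single arrays left out. The median change of the 9 genes was 0.010 to 0.080 log2 with single arrays left out, lowest without kynurenic acid array 2, against 0.053 with all. It was 0.03 after centring arrays on their medians and 0.095, the highest of all alternatives, after cyclic loess. Akt1, Foxo1, Tbc1d4 and Slc2a4 stayed above 0 in all 16 alternatives, between 0.013 and 0.10 for Akt1, 0.075 and 0.18 for Foxo1, 0.005 and 0.10 for Tbc1d4, and 0.038 and 0.17 for Slc2a4. Akt1 was lowest without kynurenic acid array 1 and Tbc1d4 without array 2 of both groups.

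The sign of the other 5 genes turned in 18 of 80 values, none of them called. After centring arrays on their medians it was -0.017 for Akt2, -0.02 for Insr and -0.01 for Irs1, and after cyclic loess 0.022 for Pik3r1. With single arrays left out the lowest and highest values were -0.043 and 0.032 for Akt2, -0.058 and 0.082 for Insr, -0.010 and 0.055 for Irs1, -0.055 and 0.18 for Irs2, and -0.027 and 0.043 for Pik3r1. Without array 2 of both groups, an alternative chosen after seeing the data, values were 0.035 for Akt2, -0.02 for Insr, -0.015 for Irs1, -0.02 for Irs2 and 0.04 for Pik3r1. The cause was not tested. List medians stayed between -0.073 and 0.072. With the replicate block 0 genes passed and 2893 had a limma unadjusted p below 0.05. Deviations of same-numbered arrays from their group means correlated at 0.086, 0.194 and 0.183, each highest with its own number. That is a hint from the data that arrays of 1 number share something. No other pair was above 0, but deviations within a group sum to 0, so positive same-numbered values by themselves push the other pairs down. The criterion for a pairing, over 0.1 in every pair, was not met for number 1, and no label states one.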
